A study of Mus musculus with 6 samples.

Results

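Local clusters of H3S10p peaks were examined in mouse embryonic stem cells, as chains of 3 or more peaks called close together in one ChIP-seq library. H3S10p is histone H3 phosphorylated at serine 10, and its regions were called with the MACS peak caller. A chain was made by joining neighbouring peaks on chromosomes 1 to 19 whose gap, from the end of one peak to the start of the next, was at most 10 kb, and chains of at least 3 peaks were kept. In library 1, 752 of 10935 autosomal peaks met the rule, in 224 chains. In library 2, 903 of 12123 did, in 260 chains. The whole lists held 11067 and 12261 peaks, and the 132 and 138 outside chromosomes 1 to 19 were not considered. The chains were chosen by the called positions of the peaks, so the number, size and length of the chains are descriptions, and only the peaks of the other library bear on them independently.

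Both libraries came from 129P2/Ola embryonic stem cells held for 20 hours in aphidicolin, which blocks DNA synthesis, and then released for 3 hours. They were prepared with the same antibody, ab14955, on formaldehyde-fixed chromatin cut to single nucleosomes. The 2 form 1 group, so no comparison between conditions could be made and no test was run. The labels do not say whether the libraries came from separate cultures, so their agreement or disagreement may be technical. No input library was used here, and read depth is unknown from the lists. The series also holds 4 RNA-seq libraries, which were not used here, and the cell type could not be checked against marker expression.

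Aurora B phosphorylates serine 10 of histone H3 as cells approach and pass through mitosis. The mark begins in pericentric heterochromatin in late G2 and spreads along the chromosome arms. Outside mitosis it is placed at single genes by other kinases, among them MSK1 and MSK2 at genes switched on by signalling. The phosphate sits beside lysine 9, and when that lysine is methylated it displaces heterochromatin protein HP1. Which genes or repeats lie at the chains was not analysed here, because the peaks are on build mm9 and the gene tables used for names are on another build.

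Most chains were short. Chains of exactly 3 peaks made up 173 of 224 in library 1 (77.2%) and 174 of 260 in library 2 (66.9%). A further 37 and 64 chains held 4 peaks, and 14 and 22 held 5 or more. The largest had 11 peaks in library 1 and 10 in library 2, and these lay at the same place on chromosome 9. Chain peaks were 6.88% of the autosomal peaks of library 1 (95% Wilson interval 6.42 to 7.37%) and 7.45% of those of library 2 (interval from 6.995 to 7.93%). These intervals reflect counting error alone, and peaks that lie side by side depend on each other.

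**Figure D1:**
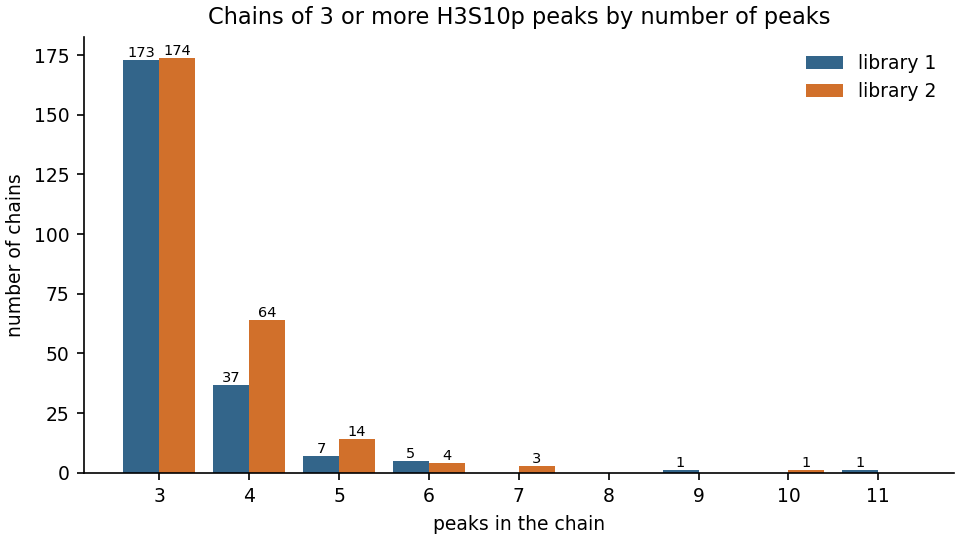
Number of chains (vertical axis) by the number of peaks they hold (horizontal axis) in library 1 (blue) and library 2 (orange). Chains of 3 dominate with 173 and 174, and library 2 holds more chains of 4, 64 against 37.

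Chains were sparse rather than continuous. Median chain length was 14.1 kb in library 1, with the middle 50% between 11.4 and 17.3 kb, and 13.8 kb in library 2 (10.6 to 17.9 kb). The shortest chains spanned 3405 and 2936 bp and the longest 38506 and 37130 bp. Peaks covered a median of 7.96% and 7.55% of the bases of a chain. Gaps inside chains had medians of 5916.5 and 5575 bp in libraries 1 and 2. Only 25 of 528 inner gaps in library 1 (4.73%) and 37 of 643 in library 2 (5.75%) were under 1 kb. When peaks less than 1 kb apart were merged first, 207 and 237 chains remained.

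Gaps continued past the limit of 10 kb, though fewer lay just outside it than just inside. Over all autosomal peaks, 168 gaps in library 1 and 161 in library 2 lay between 8 and 9 kb. Between 9 and 10 kb there were 155 and 195, and between 10 and 11 kb 121 and 126. Gaps of 1 kb or less numbered 95 and 150, fewer than the 176 and 205 gaps between 6 and 7 kb. In 55 chains of library 1 and 63 of library 2 the largest gap exceeded 9 kb. Just inside the limit was a chain of 3 on chromosome 6 from 88169061 to 88186241 in library 1, with a gap of 9999 bp, and a chain of 5 on chromosome 11 from 120557045 to 120585087 in library 2, with one of 9991 bp. Just outside it were 3 peaks on chromosome 11 from 58791645 to 58808129 in library 1 and 3 on chromosome 4 from 154430890 to 154444649 in library 2, each kept apart by a gap of 10003 bp.

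Chains gathered where peaks were dense. By the mean of the libraries, the share of peaks in chains was highest on chromosome 19, at 12.2% in library 1 and 12.3% in library 2, followed by chromosome 17 (12.2% and 10.4%) and chromosome 15 (9.53% and 12.9%, the highest of library 2). Chromosome 16 had the lowest share, 1.82% and 1.94%, from 2 chains in each library. Chromosome 11, the densest in peaks, carried 27 and 26 chains. Over the 19 chromosomes the share in chains correlated between the libraries with Pearson's r = 0.80, and its mean correlated with mean peak density with r = 0.745. Both are descriptions over chromosomes, whose chains and densities come from the same lists. The libraries parted on some chromosomes. On chromosome 10 the share was 9.92% in library 1 and 6.97% in library 2, and on chromosome 8 it was 7.31% and 11.2%.

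**Figure D2:**
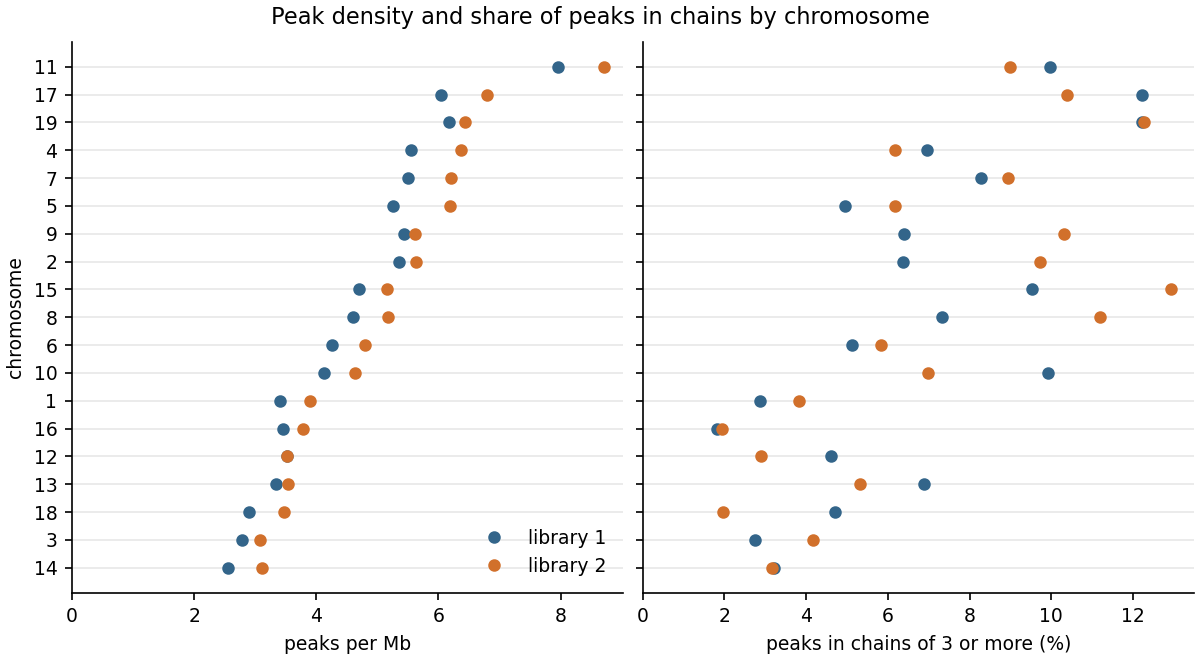
Peaks per Mb (left) and the percentage of peaks in chains of 3 or more (right) for each autosome, ordered by mean peak density, in library 1 (blue) and library 2 (orange). In library 1 the share is 1.82% on chromosome 16 and 12.2% on chromosome 19, and the libraries lie well apart on chromosomes 2, 8, 9, 10 and 15.

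Chains also lay near one another. Another chain of the same list was within 100 kb of 42 chains in library 1 (18.8%) and 53 in library 2 (20.4%). Among single peaks, which had no neighbour within 10 kb, 5.95% and 6.37% were that close to a chain. Single peaks were set apart by the same rule for their sparse surroundings, so this contrast follows in part from the choice. The 1 Mb window with most chains over both libraries was on chromosome 10 from 80000001 to 81000000. It held 7 chains in library 1 and 3 in library 2, with 47 and 45 peaks. Its neighbour from 79000001 to 80000000 held 3 and 5 chains, so these windows differed in opposite directions between the libraries.

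Overlap between chains of the 2 libraries was uncommon, even when any shared base counted. Of the 224 chains of library 1, 30 (13.4%, Wilson interval 9.55 to 18.5%) overlapped a chain of library 2 by at least 1 bp. Of the 260 chains of library 2, 31 (11.9%, 8.53 to 16.4%) overlapped one of library 1. Over groups of any size, with single peaks and pairs included, 2.15% and 1.84% overlapped a chain of the other library. Pairs of peaks did so in 5.89% (4.48 to 7.70%) and 4.69% (3.57 to 6.15%) of cases. Single peaks overlapped one in 1.49% and 1.23%. Larger groups also span more bases, and these shares were not adjusted for length.

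Most chains still met some peak of the other library. Of the library 1 chains, 61 (27.2%) held no library 2 peak in their span, 82 held 1, 59 held 2 and 22 (9.82%) held 3 or more. Of the library 2 chains, 78 (30%) held no library 1 peak, 98 held 1, 64 held 2 and 20 (7.69%) held 3 or more. Over groups of any size, 60.9% and 64.0% held no peak of the other library, and 0.261% and 0.22% held 3 or more. Chains span more bases than single peaks, and these shares were not adjusted for length. A chain in one library was therefore most often a stretch with 1 peak, or with 0 or 2 peaks, in the other. Every peak of the chain was found again in 2 chains of library 1 and 6 of library 2. Without the 3 loci on chromosomes 2, 9 and 11 described below, this held for 1 and 3 chains.

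Peak by peak, members of chains were found in the other library a little less often than other peaks. In library 1, 227 of 752 chain peaks (30.2%, 27.0 to 33.6%) overlapped a library 2 peak, against 35.6% (34.7 to 36.6%) of peaks outside chains and 35.3% of all autosomal peaks. In library 2, 240 of 903 chain peaks (26.6%, 23.8 to 29.6%) overlapped a library 1 peak, against 32.3% (31.4 to 33.1%) outside chains and 31.8% of all. The differences were -5.44 and -5.69 percentage points. They were not even over chain sizes: in library 1, 25.8% of peaks in chains of 3 were found, but 35.1% (27.9 to 43.1%) in chains of 4. In library 2 these shares were 25.1% and 25.8%. Chain peaks were also narrower, with a median width of 281 bp against 325 bp in library 1 and 250 against 299 bp in library 2, and their median score was 64.6 against 66.1 and 65.2 against 67.2. The score is the authors' value for each peak, on a scale the files do not name.

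The mean gap was smaller among peaks of like width, for which each list was split into 4 equal width groups. Narrow peaks recurred least in chains and outside them: among the narrowest 25% of library 1, 15.6% of chain peaks and 16.1% of other peaks were found again. Among the widest 25% of library 1 the shares were 54.6% (47.2 to 61.8%) and 55.9% (54.0 to 57.8%). In library 2 they were 11.4% and 13.8% for the narrowest 25%, and 51.6% (43.9 to 59.2%) and 51.0% (49.2 to 52.8%) for the widest. The group of 322 to 480 bp in library 1 differed more than the whole list, with 32.4% of chain peaks (25.4 to 40.3%) and 41.6% of other peaks (39.7 to 43.5%) found. In the remaining groups chain peaks were found in 24.5% against 28.2% of cases in library 1, and in library 2 in 22% against 24.3% and 35.2% against 38.8%. Averaged over the 4 width groups, each weighted by its number of chain peaks, the mean difference went from -5.56 to -2.70 percentage points. Chain peaks were also found less often than other peaks of the same surroundings. Within 1 Mb windows that held both kinds, chain peaks were found in 29.8% and 26.3% of cases and other peaks in 33.8% and 31.2%, a difference of -3.98 points in library 1 and -4.97 in library 2.

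Chains at 3 loci stood apart from this. They were chosen after their values were seen, on chromosomes 2, 9 and 11, and all 3 had chains in both libraries. At these loci 20 of 23 chain peaks of library 1 (87.0%) and 20 of 20 of library 2 were found again. Without them, 28.4% (25.2 to 31.8%) of chain peaks of library 1 and 24.9% (22.2 to 27.9%) of library 2 recurred. The differences from other peaks were then -7.23 and -7.35 points. Nearly all peaks at these loci recurred and the other peaks were all kept, so the wider differences follow from the choice of loci. Every chain peak with a score over 150 lay at the 3 loci, 9 in library 1 and 12 in library 2. Such scores were not particular to chains: of 43 and 45 autosomal peaks with a score over 150, 34 and 33 lay outside chains.

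**Figure D3:**
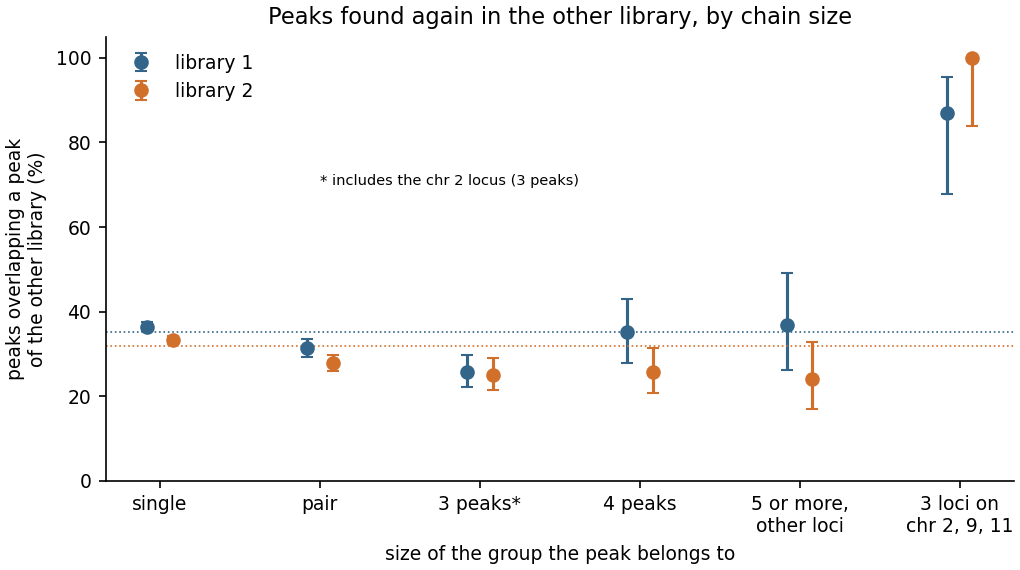
Percentage of peaks overlapping a peak of the other library (vertical axis, bars are 95% Wilson intervals) by the size of the group the peak belongs to, in library 1 (blue) and library 2 (orange), with dotted lines at the share of all autosomal peaks. The share is 36.5% and 33.3% for single peaks, 25.8% and 25.1% in chains of 3, and 35.1% and 25.8% in chains of 4. In chains of 5 or more at other loci it is 36.9% and 24.1%, and at the 3 loci 87.0% and 100%. In library 1 the chains of 4 and of 5 or more at other loci thus lie near the share of single peaks.

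The chain with most peaks, which was also the longest, lay on chromosome 9 at the first assembled bases next to the centromeric end. It ran from 2999894 to 3038399 with 11 peaks in library 1 and from 2999893 to 3037022 with 10 in library 2. All 10 peaks of library 2 overlapped one of library 1, and the only peak called once was the last of library 1, from 3037894 to 3038399 with a score of 70.2. The strongest peaks of library 1 were those from 3035586 to 3036711 (score 528) and from 2999894 to 3001565 (485). The matching peaks of library 2 scored 412 and 522. In both libraries the widest gap inside the chain was at the same place, a stretch without peaks of 9069 and 9064 bp after the third peak. Peaks covered 36.9% and 36.4% of the chain, and the widest, from 3025187 to 3027926, had the same 2740 bp in both lists. These scores are set side by side as listed values, since the scale is not named.

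A second chain close to a centromeric end was on chromosome 11, from 3027390 to 3060143 with 9 peaks in library 1 and from 3027386 to 3057976 with 7 in library 2. All 7 peaks of library 2 were matched, and 2 peaks of library 1 were not, at scores of 75 and 65.9. One peak stood out in it, from 3035483 to 3035817, with scores of 420 and 398. The other peaks scored 51.0 to 101 in library 1 and 65.3 to 177 in library 2. Peaks were narrower here and covered 14.2% and 8.17% of the chain.

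The third lay inside chromosome 2 and held the highest-scoring chain peaks of both libraries. Its 3 peaks spanned 98502278 to 98507600 in library 1 and 98502279 to 98507600 in library 2, so the chains overlapped over 99.98% of their joint length. The last peak, from 98506287 to 98507600, scored 1909 and 1961, and the first, with its start at 98502278 in library 1, scored 1454 and 1493. Between them a narrower peak, 657 and 671 bp wide, scored 131 and 134. Whether satellite or other repeats lie at these 3 loci was not analysed here, and with no input library used here it was not tested whether their scores reflect H3S10p.

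**Figure D4:**
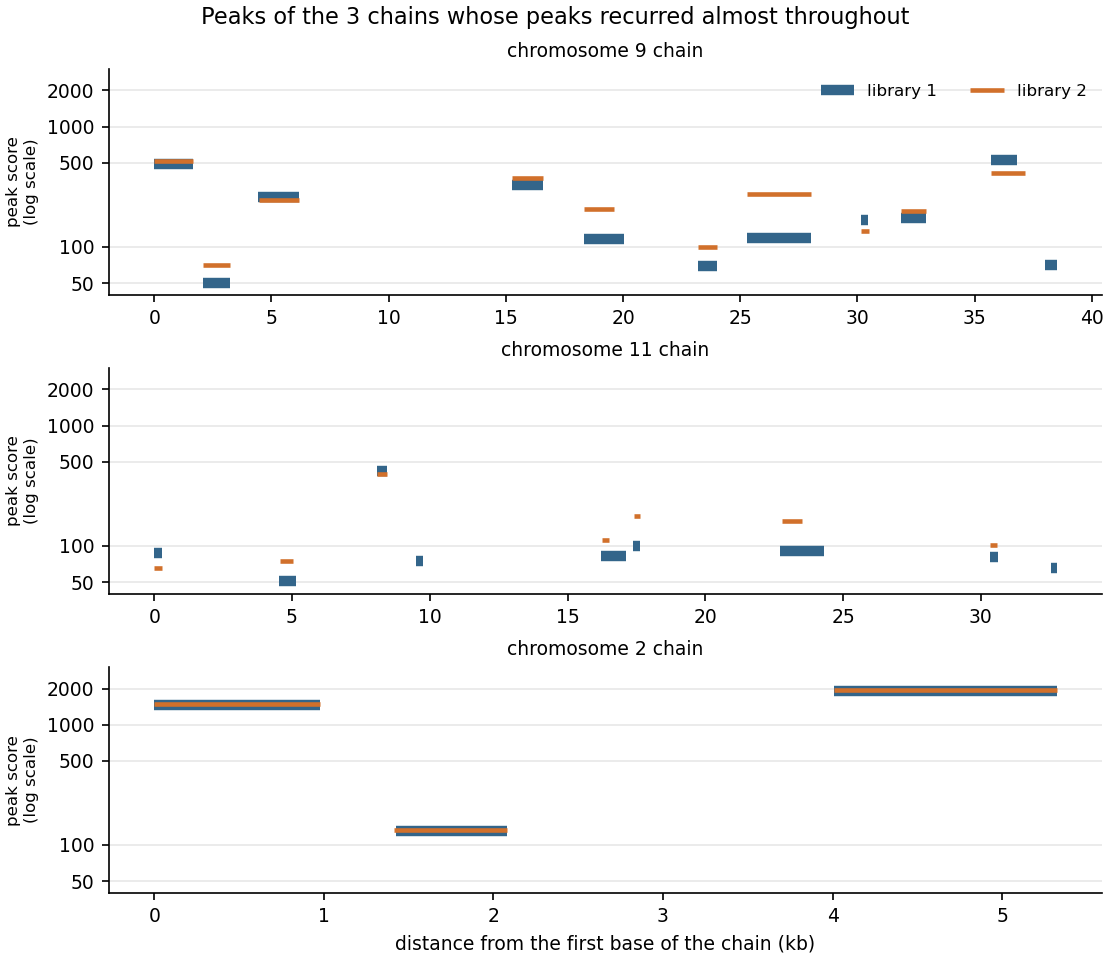
Peaks of the chains on chromosomes 9, 11 and 2, drawn from start to end as distance from the first base of the chain in kb (horizontal axis) at their score (vertical axis, log scale), in library 1 (thick blue) and library 2 (thin orange). All 20 library 2 peaks coincide with a library 1 peak, and 3 library 1 peaks on chromosomes 9 and 11 have no partner.

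Outside the 3 loci, overlapping chains matched to very different degrees. There were 28 overlapping pairs of chains on 10 chromosomes, with a median overlap of 46.6% of their joint length and a range of 1.24 to 99.0%. In 14 of them the overlap exceeded 50% of the joint length, and in 5 it exceeded 90%. In 14 pairs 2 peaks of the library 1 chain overlapped a peak of its partner, in 8 pairs 1 peak did, in 4 pairs 3 did and in 2 pairs 0 did. The closest match by length was on chromosome 7, where 3 peaks from 28149185 to 28160701 in library 1 and 4 from 28149149 to 28160623 in library 2 had 2 peaks in common. On chromosome 9 a chain of 3 from 24575191 to 24585931 in library 1 and one of 5 from 24575191 to 24585639 in library 2 had 3. These pairs were chosen after their values were seen.

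Ranked by the peaks of both libraries, the pairs that followed those at the assembled starts of chromosomes 9 and 11 were less complete. A chain of 6 peaks on chromosome 17 from 27427179 to 27453399 in library 1 met 2 chains of library 2. One of 3 peaks, from 27427180 to 27430841, matched its first 3 peaks, and the other, of 3 peaks, from 27443087 to 27462276, matched 2 more. Scores were 52.4 to 74.9 in library 1 and 51.6 to 78.1 in the former library 2 chain, and the latter had a median score of 90.4 and a highest of 102. The same stretch was thus called as 1 chain in library 1 and as 2 in library 2.

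On chromosome 11 a chain of 4 peaks from 120557060 to 120575439 in library 1 lay within a chain of 5 from 120557045 to 120585087 in library 2, yet only the first peak was shared, at scores of 52.4 and 56.0. The remaining 3 and 4 peaks did not overlap, though some lay close. Library 1 peaks from 120561235 to 120561427 and from 120575213 to 120575439 were near library 2 peaks from 120560549 to 120560780 and from 120574534 to 120574910. On chromosome 15 a chain of 5 from 76523996 to 76541368 in library 1 met a chain of 4 from 76540978 to 76555443 in library 2 over 391 bp, through 1 peak at the end of the former.

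Some larger chains were absent from the other list, though less often than chains of 3. Among chains of 5 or more, 0 of 14 in library 1 and 1 of 22 in library 2 held no peak of the other library. For chains of 4 it was 2 of 37 and 15 of 64, and for chains of 3 it was 59 of 173 and 62 of 174. The chains that follow are single cases. In library 2, 6 peaks on chromosome 8 from 113229405 to 113245981, with scores of 50.8 to 85.2, contained no library 1 peak. In library 1, 4 peaks on chromosome 2 from 152751559 to 152769248, with scores of 54.5 to 85.7, contained no library 2 peak. Another 4 on chromosome 19 from 24205355 to 24226773 in library 1 likewise contained none. A chain of 7 in library 2 on chromosome 5 from 139831577 to 139856895, at scores of 50.5 to 93.7, was met by 2 library 1 peaks, at its last 2 positions. A further chain of 7 in library 2, on chromosome 17 from 27632905 to 27666115, was also met by 2. Outside the 3 loci, the highest score in the chains named here was 103, in the chain of 3 on chromosome 6 of library 1. The lowest score in either list was 50.01, and single peaks of library 1 had scores of 57.4 to 79.6 in their middle 50%.

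Chains were then compared by 1 Mb windows, which chains that overlap nearly always share. Windows with a chain numbered 168 in library 1 and 189 in library 2, and 80 had one in both, which was 47.6% and 42.3% of them. Among all windows with a peak, 9.85% of those of library 1 held a chain of library 2 and 8.49% of those of library 2 held a chain of library 1. Windows with chains were rich in peaks, so windows of like peak number were compared. With 20 or more library 1 peaks, 43 of 61 windows with a library 1 chain held a library 2 chain (70.5%, Wilson interval 58.1 to 80.4%), and so did 15 of 19 windows without one (78.9%, 56.7 to 91.5%). With 20 or more library 2 peaks the shares were 57.7% (46.6 to 68.0%) of 78 windows and 41.4% (25.5 to 59.3%) of 29. With 10 to 19 library 1 peaks, 41.9% of windows with a chain (31.3 to 53.3%) and 26.3% of windows without (20.6 to 32.9%) held a library 2 chain. In the reverse direction the shares were 34.5% with a chain (25.3 to 44.9%) and 22.0% without (16.8 to 28.2%). In these 4 comparisons the intervals overlapped, and the order was not the same in all 4. Windows with 1 to 9 peaks differed more, but peak number was not matched within this class. A chain needs at least 3 peaks, and the windows without a chain include those with fewer, so the difference cannot be told apart from peak density. In this class, 6 of 33 windows with a library 1 chain (18.2%, 8.61 to 34.4%) and 43 of 1538 without (2.80%, 2.08 to 3.75%) held a library 2 chain. In the reverse direction it was 5 of 24 (20.8%, 9.24 to 40.5%) and 32 of 1560 (2.05%, 1.46 to 2.88%), and the intervals did not overlap in either direction. The 6 and the 5 both include the windows of the chromosome 2 and chromosome 9 loci described above. The chromosome 9 window counted only 1 peak in each library, because its chain starts just before the end of that window. Shares without these loci were not worked out.

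The surroundings of the chains were rich in peaks of the other library that overlapped no peak of the chain's own list, called unmatched here. Leaving out the 3 loci, unmatched library 2 peaks lay at 19 per Mb between 10 and 25 kb from a library 1 chain (exact Poisson 95% interval 15.8 to 22.6) and at 18 per Mb between 50 and 100 kb (16.2 to 19.8). At 250 to 500 kb they were at 12.7 per Mb, against 3.43 per Mb over chromosomes 1 to 19. Around single peaks of library 1 the density was 9.2 per Mb at 10 to 25 kb and 7.08 at 250 to 500 kb. The rule set single peaks apart for sparse surroundings in their own list, so this contrast may follow in part from the choice. Unmatched library 1 peaks around library 2 chains gave 14.9 per Mb at 10 to 25 kb (12.3 to 17.9), 14.9 between 50 and 100 kb and 10.5 at 250 to 500 kb, against 2.94 overall. Distances counted from several chains can include the same peak more than once, so these intervals are too narrow.

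Between the peaks of a chain the density of unmatched peaks was not above that just beside it. Both kinds of stretch hold no peak of the chain's own list, since the rule leaves none within 10 kb of a chain, so they can be set side by side but not against the bins farther out. Unmatched library 2 peaks lay at 19.6 per Mb between the peaks of library 1 chains (14.9 to 25.3) and at 22.4 within 10 kb outside (18.2 to 27.3). For library 2 chains the values were 17.7 per Mb (13.5 to 22.7) and 19.9 (16.2 to 24.1). Their intervals overlap. Chain peaks that were not found again had the nearest peak of the other library at a median of 7.17 kb in library 1 and 7.83 kb in library 2, against 28.5 and 32.3 kb for other peaks that were not found again. Within 1 kb the corresponding shares were 9.71% and 6.33% for chain peaks, and 6.15% and 5.54% for other peaks. These distances count every peak of the other library, also those matching a neighbouring peak of the same chain. The rule places such neighbours within 10 kb, so the shorter distance of chain peaks is partly set by the rule.

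**Figure D5:**
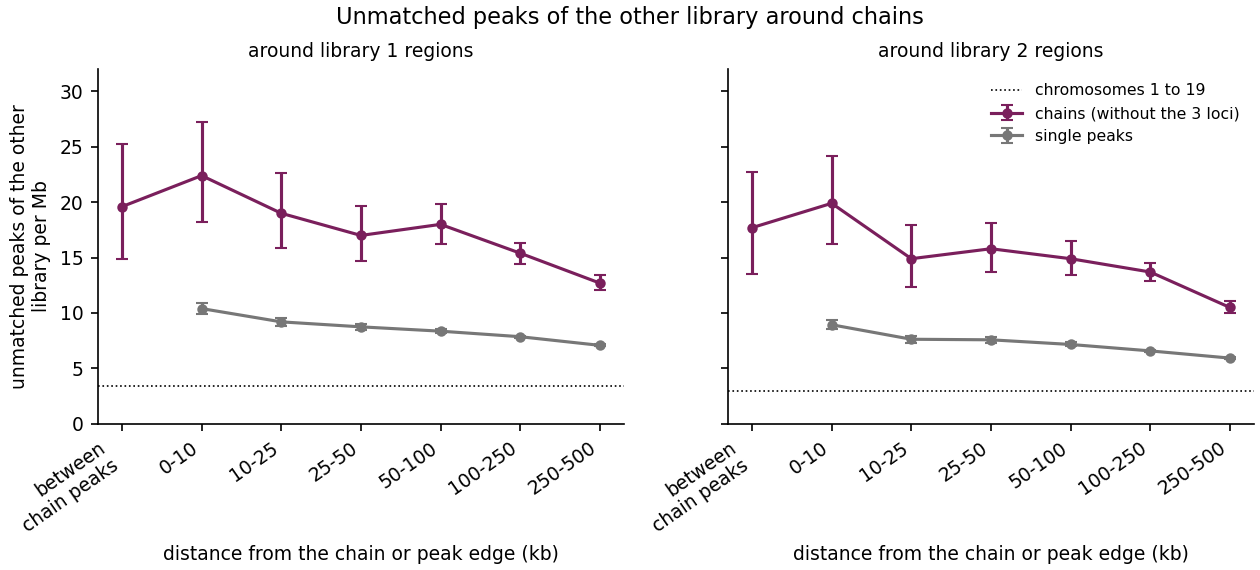
Density of the other library's unmatched peaks (vertical axis, per Mb, bars are exact Poisson 95% intervals) between the peaks of chains and at increasing distance from the edge in kb (horizontal axis), for chains without the 3 loci (purple) and single peaks (grey), with a dotted line at the density of unmatched peaks over chromosomes 1 to 19. Around library 1 chains it is 12.7 to 22.4 per Mb outside the chains, above the 7.08 to 10.4 per Mb around single peaks. Single peaks were set apart by the rule for sparse surroundings in their own list.

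The position of a peak within its chain made little difference. Outside the 3 loci, 28.7% (24.7 to 33.1%) of the end peaks and 27.9% (23.0 to 33.3%) of the inner peaks of library 1 chains were found again. In library 2 the shares were 25.5% (21.9 to 29.4%) and 24.1% (20.0 to 28.7%). The intervals overlap, so no difference between ends and middle could be seen with these numbers.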

How the data were processed

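Peaks were called with MACS separately in each ChIP library, per the file headers, and Bowtie and build mm9 are named in the submitters' processing notes. Versions of MACS and Bowtie, thresholds and any control: not given in the sources used here. For each peak the authors deposited its position and a score, whose scale is not named. Positions are counted from 1. Peaks on chromosomes 1 to 19 were joined at gaps of at most 10 kb, and overlap meant at least 1 bp. Intervals are 95% Wilson (shares) or exact Poisson (densities, from 3 Mb to the last called base) and cover counting error only. Chain finding and overlap were tested on simulated data. The members, lists and settings were chosen with earlier results of these data known. Regions named were the 3 chains with most peaks, the longest, the one with the highest score and the largest unmatched one of each library, the 5 overlapping pairs with most peaks, and the nearest to the gap limit, with ties going to more peaks of the other library and then to shorter length. Alternatives covered gap, chain size, merging, score, list length, overlap rule, width, window and leaving out either library. The RNA table was not used. Python 3.11.15, NumPy 2.4.6, pandas 2.3.3, SciPy 1.17.1 and matplotlib 3.10.9 were used.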

Additional observations from a re-analysis of the deposited data

How the results depend on the processing

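Values are means of both libraries, and settings without the 3 loci were added after seeing the data. Nearly all peaks at these loci recurred, so leaving them out lowers the recurrence of chains and chain peaks by that choice. The share of peaks in chains, 7.16%, was 1.4% with gaps of at most 5 kb, 18.5% with 20 kb, 2.64% for chains of 4 or more, 6.62% after merging peaks under 1 kb apart, 1.85% in the upper 50% by score and 6.58% with lists of equal length. The number of chains, 242, became 49 (5 kb), 561.5 (20 kb), 68.5 (4 or more) and 31 (upper 50%). The share of chains overlapping a chain of the other library, 12.7%, was 10.6% (5 kb), 31.4% (20 kb), 9.37% (4 or more), 9.84% (upper 50%), 10.8% (equal length), 7.48% when 50% of both had to overlap and 11.6% without the 3 loci. Without the 3 loci it was also 2.31% (5 kb), 6.46% (4 or more) and 0% (upper 50%; 0 of 24 and 0 of 32 chains, and a limit of 3 chains would be 12.5% and 9.38%), so in short-gap and high-scoring chains the 3 loci carried most or all of the recurrence.

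The lower recurrence of chain peaks, -5.56 percentage points, was -2.57 (5 kb; 0.357 in library 1 and -5.50 in library 2), -4.79 (20 kb), -5.26 (equal length), -3.93 (50% overlap of both peaks), -2.70 (within width groups) and -7.29 (without the 3 loci). In the upper 50% by score it was 10.9, and -2.17 without the 3 loci, so there the change of sign rests on those loci. For chains of 4 or more the mean was 0.713, but the libraries differed in sign (4.76 and -3.34); without the 3 loci it was -3.05 (0.547 and -6.65), and the cause was not tested. With 5 kb it was -10.1 without the 3 loci. Median length, 14.0 kb, was 7.16 (5 kb), 25.1 (20 kb), 20.4 (4 or more), 14.5 (merged) and 13.7 kb (upper 50%). The difference in median score, -1.78, was -3.04 (5 kb) and -1.19 (4 or more). That in median width, -46.5 bp, was -51.0 (5 kb), -38.0 (20 kb), -30.0 (4 or more), -51.5 (without the 3 loci) and -39.5 bp (4 or more without them). The same-window difference, -4.48 points, was -5.73 without the 3 loci. Leaving out either library gives the other's value: 6.88 to 7.45% of peaks, 224 to 260 chains, 11.9 to 13.4% of chains, -5.69 to -5.44 points, 13.8 to 14.1 kb, -2.06 to -1.5 in score, -49.0 to -44.0 bp and -4.97 to -3.98 points. No paired analysis was possible because the 2 ChIP libraries form a single group and no test was run. Read depth, which would limit how many peaks recur, is unknown here.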

Other observations

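Chromosome X, which the rule left out, carried 2 chains in library 1 and 1 in library 2 under the same gap, from 127 and 134 peaks. Chromosome Y carried 0 chains among its 4 peaks in each library.

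Chains that met a chain of the other library held more peaks found again than the rest, as they must in part by their choice. Outside the 3 loci, 57.0% of the peaks of such chains in library 1 and 47.6% in library 2 were found, against 24.2% and 21.9% in the other chains. By size and with the 3 loci left out, chains of 5 or more overlapped a chain of the other library in 2 of 12 cases (16.7%, Wilson interval 4.70 to 44.8%) in library 1 and 5 of 20 (25%, 11.2 to 46.9%) in library 2. With the loci it was 4 of 14 (28.6%) and 7 of 22 (31.8%).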
